A study of Mus musculus with 6 samples.

Results

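The genes described here encode the Wnt ligands, their Frizzled and Lrp receptors, the R-spondins and their Lgr receptors, the secreted Wnt inhibitors, and the feedback regulators and transcription factors of the pathway. They were measured in mouse uterus with and without the transcription factor gene Tcf21. They were taken by symbol from the protein-coding rows of the deposited table (Wnt, Fzd, Sfrp, Dkk, Rspo, Lgr4 to Lgr6, Lrp5 and Lrp6, Nkd, Axin, Lef1, Tcf7, Znrf3, Rnf43, Wif1 and Notum). Of 26018 genes listed, 17393 are protein-coding and 51 are such Wnt genes. RNA came from whole uteri of 6-week-old, weight-matched female mice, with 1 library per animal. The conditional knockout group (cKO, labelled Tcf21d/d) held 3 animals with deleted Tcf21 and the control group (labelled Tcf21f/f) held 3 animals with floxed Tcf21. No treatment is named in the labels. Which Cre transgene was used, and in which cells it acts, is not given in the labels.

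Wnt proteins are secreted lipid-modified ligands that bind Frizzled receptors. With the co-receptors Lrp5 and Lrp6 they stabilise beta-catenin, which acts with TCF/LEF factors on target genes, several of which encode inhibitors of the same pathway. Other Wnts act mainly without beta-catenin. R-spondins bind Lgr receptors and remove the ligases Znrf3 and Rnf43, which otherwise take Frizzled receptors off the cell surface. In mice, Wnt4, Wnt5a and Wnt7a are required for the development of the female reproductive tract, with Wnt7a made in the epithelium and Wnt5a in the mesenchyme.

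The libraries held 14584450 to 16579573 reads on genes. Tcf21 had normalised read counts of 26.0, 0 and 0 in cKO replicates 1 to 3, against 341, 152 and 144 in control replicates 1 to 3. A count of 0 allows up to 2.93 and 3.31 in cKO replicates 2 and 3. Of the 8 uterine mesenchyme markers, Hoxa13 was at 0 in 2 cKO and 2 control libraries. The other 7 were detected in every library. None of these 7 had a limma adjusted p under 0.05 (from 0.170 for Nr2f2 to 0.852 for Wt1). All 7 had a lower mean in cKO, and the groups did not overlap for Hoxa10, Hoxa11 and Nr2f2. DESeq2 gave adjusted p values of 0.00131 for Hoxa10, 0.0126 for Hoxa11, 0.00353 for Pgr and 0.0376 for Esr1. For Nr2f2, Emx2 and Wt1 the DESeq2 adjusted p values were 0.0762, 0.305 and 0.549. The list of 8 took 0.0119 to 0.0180% of reads in cKO and 0.0188 to 0.0478% in control libraries. Smooth muscle markers (10 of 10 detected in every library) took 0.495 to 0.669% of reads in cKO libraries and 1.21 to 1.71% in controls. Des, which skeletal muscle also expresses, held most of that share in cKO libraries, and its limma adjusted p was 0.948. The other 9 markers took 0.0765 to 0.1004% of reads in cKO libraries and 0.870 to 1.21% in controls. All 9 fell (limma adjusted p under 0.05), with a mean in controls 2.89 to 93.7 times that in cKO and a summed mean 12.1 times that in cKO. Skeletal muscle markers (13 genes, with 1 at 0 in 1 control library) took 6.56 to 9.40% in cKO libraries and 3.19 to 6.27% in controls. In control replicate 1, liver markers took 1.62% of reads, and in any other library at most 0.0371%. Mitochondrially encoded genes took 23.8% of reads in that library and 8.10 to 13.7% in the others. Intestine markers were highest in control replicate 2, at 0.0142%, and took at most 0.00515% in any other library. In whole tissue, fewer cells of a type and less RNA per cell cannot be told apart.

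Of the 51 Wnt genes, 40 passed the filter on low reads and were tested. In this test, the feedback inhibitor gene Nkd1 and the R-spondin gene Rspo3 fell in the cKO uteri, none rose, and the other 38 missed the threshold (limma, Benjamini-Hochberg adjusted p under 0.05 over all 16314 genes tested). In the same fit, 0.889% of all tested genes were called lower and 0.276% higher, and 2 of 40 Wnt genes is 5%. At an unadjusted limma p under 0.05, 9 Wnt genes were lower and 3 were higher, which is 22.5% and 7.5% of the 40, against 7.6% and 6.11% of all tested genes. All 3 cKO libraries lay below all 3 controls for 7 Wnt genes and above them for 3, which is 17.5% and 7.5%, against 10.5% and 9.04% of all tested genes. The median log2 fold change over the 40 genes was -0.22 and that over all tested genes was 0.0020. With edgeR's quasi-likelihood test the same pair of genes was called lower and none higher, against 0.736% and 0.19% of all tested genes. DESeq2 called 6 lower and none higher, against 3.72% and 1.8% of the genes it gave an adjusted p. These were Nkd1, Rspo3, Wnt5a, Fzd5, Dkk2 and Nkd2. The authors' deposited table lists the same 6 genes as lower at an adjusted p under 0.05, and no Wnt gene as higher. In the authors' deposited table, 2.34% of all genes are called lower and 0.872% higher.

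Secreted inhibitors were the most abundant Wnt genes in these libraries, which also held many skeletal muscle reads. Skeletal muscle markers took 6.56 to 9.40% of reads in cKO and 3.19 to 6.27% in control libraries. The levels below are those of the whole sample, and the part of skeletal muscle in them was not tested. Levels between genes are given as normalised read count per kilobase of the gene length in the deposited table. Sfrp4 and Sfrp2 encode secreted Frizzled-related proteins, which bind Wnt ligands. Sfrp4 stood at 570.5 ± 89.2 per kilobase in cKO uteri and 557 ± 372 in controls, and Sfrp2 at 564 ± 204 in cKO uteri and 417 ± 42.2 in controls (SD, n = 3 each). By group mean they were the top pair in both groups, and their order was not separated by the spread between animals. In controls that spread did not separate Sfrp4 from Dkk3 either, which stood at 360.2 ± 91.6 per kilobase. Sfrp1, Dkk3, Fzd9 and Fzd4 followed in cKO uteri, at 198 to 229 per kilobase. In controls Dkk3, Fzd4, Sfrp1 and Dkk2 followed, at 197 to 360.2 per kilobase. Wnt4 was the most abundant ligand gene in cKO uteri, at 139 ± 25.1 per kilobase, against 78.7 ± 54.4 in controls. In controls it did not stand apart from Wnt5a and Wnt9a, at 73.4 and 69.1 per kilobase, and its higher mean rested on control replicate 1. Wnt4 had 141, 51 and 43.7 per kilobase in control replicates 1 to 3, below both of the others in replicates 2 and 3. In both groups, 19 of the 51 genes stood above 50 per kilobase and 16 below 10.

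**Figure D1:**
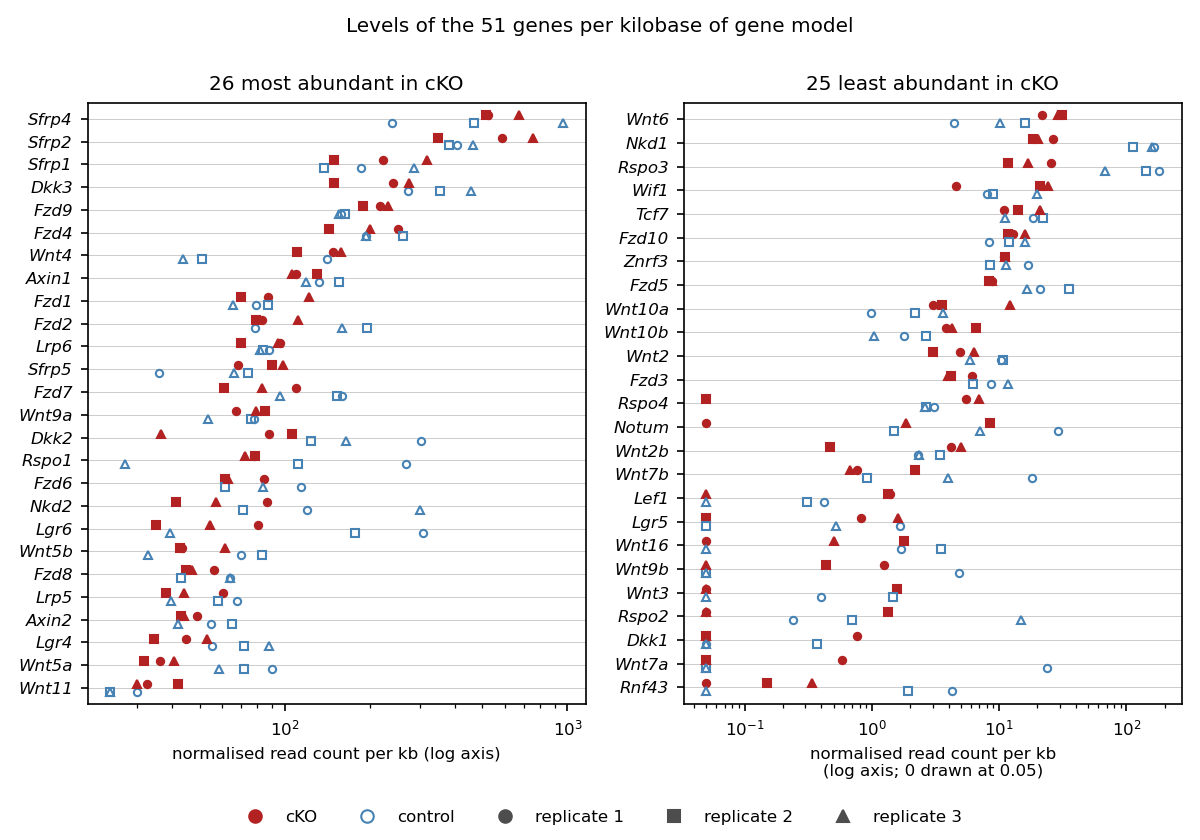
Normalised read count per kilobase of gene length (log axis) for all 51 Wnt genes, ordered by the cKO mean, with 3 cKO libraries as filled and 3 control libraries as open symbols. Sfrp4 and Sfrp2 lead, and the cKO symbols of Nkd1 and Rspo3 lie left of all 3 of their controls.

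Among the ligands, no gene passed. Of 15 ligand genes listed, 10 were tested, 5 had a lower and 5 a higher log2 fold change, and the median was -0.01. Wnt5a, a ligand of the branch that acts mainly without beta-catenin, is on the plus strand of chromosome 14 (28504750 to 28527448, GRCm38). Its normalised read counts were 282, 249 and 317 in cKO replicates 1 to 3, against 705, 559.9 and 458 in control replicates 1 to 3. Every cKO library lay below every control. The Wnt5a log2 fold change was -1.0 ± 0.21 (SE over 3 cKO and 3 control animals; 95% CI -1.48 to -0.53) with a limma adjusted p of 0.0623, which missed the threshold. Without control replicate 3 it was -1.16 with a limma adjusted p of 0.0377, and with no filter on low reads the limma adjusted p was 0.0417. On all 6 libraries DESeq2 gave an adjusted p of 0.00229. The Wnt5a values of the controls ran in the same order as their uterine mesenchyme and epithelial marker shares, given beside Rspo3. The part of either share in the result was not tested. Exons of Gm2670 on the opposite strand cover 4.58% of the exon bases of Wnt5a. Strand use in the counting is not stated. Gm2670 held 0 reads in each cKO library, which allows values of up to 2.79, 2.93 and 3.31, against 15.9, 13.5 and 14.2 in control replicates 1 to 3, with a limma adjusted p of 0.160.

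Wnt4, required in mice for formation of the Müllerian duct from which the uterus develops, is on the plus strand of chromosome 4 (137277489 to 137299726). Its normalised read counts were 623, 462 and 661 in cKO replicates 1 to 3, against 593, 214 and 183 in control replicates 1 to 3. The groups overlapped because control replicate 1 stood among the cKO libraries. The Wnt4 log2 fold change was 1.01 ± 0.42 (SE; 95% CI 0.02 to 1.99), with a limma adjusted p of 0.354. Without control replicate 1 it was 1.53 with a limma adjusted p of 0.00913. That library also held the liver transcripts and had the highest epithelial and uterine mesenchyme marker shares. Mitochondrially encoded genes took 23.8% of its reads, against 8.10 to 13.7% in the other libraries. The part of these traits in the result was not tested. Wnt4 reads are uncertain in places, since the gene has stretches of up to 169 bases that match transcripts of 167 other genes at 95% identity or more.

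Wnt6 had 47.4, 68.3 and 63.0 in cKO replicates 1 to 3, against 9.75, 35.1 and 22.2 in control replicates 1 to 3. Every cKO library lay above every control, with a log2 fold change of 1.52 ± 0.54 (SE) and a limma adjusted p of 0.251. Wnt10b, at 13.0 to 22.4 in cKO and 3.56 to 8.99 in control libraries, was the other ligand gene whose cKO libraries all lay higher, at a limma adjusted p of 0.485. The remaining tested ligand genes, Wnt2, Wnt2b, Wnt5b, Wnt7b, Wnt9a and Wnt11, had overlapping groups and log2 fold changes from -1.80 for Wnt7b to 0.40 for Wnt11.

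Wnt7a, the ligand of the uterine epithelium, did not pass the filter. It held 2, 0 and 0 reads in cKO replicates 1 to 3, against 62, 0 and 0 reads in control replicates 1 to 3, so nearly all of its reads came from 1 library. Wnt7b and Wnt9b were also highest in control replicate 1. Wnt7b stood at 3.31 to 10.7 in cKO libraries, against 89.0, 4.49 and 19.6 in control replicates 1 to 3. Epithelial markers took 0.00400 to 0.00743% of reads in cKO libraries, against 0.0430, 0.0189 and 0.00521% in control replicates 1 to 3. Of these 10 markers, 1 to 3 were at 0 in each cKO library and 2 in control replicate 3, and Foxa2 was at 0 in all 3 cKO libraries. The part of epithelial content in the Wnt7a and Wnt7b values was not tested. Wnt3, Wnt10a and Wnt16 were not tested either and held at most 27 reads in any library.

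The relation between Wnt4 and Wnt5a within each library does not depend on scaling. This pair was chosen after its values were seen. The ratio of Wnt4 to Wnt5a was 2.20, 1.86 and 2.08 in cKO replicates 1 to 3, against 0.841, 0.382 and 0.400 in control replicates 1 to 3. Every cKO library had more normalised reads on Wnt4 than on Wnt5a and every control had fewer. The mean log2 ratio was 1.03 ± 0.13 in cKO and -0.99 ± 0.64 in control libraries (SD, n = 3 each), a difference of 2.02. An exact two-sided permutation test gave p = 0.1, the smallest that 3 against 3 libraries allow. It was the same after adjustment over the 3 ratios computed, which does not cover the choice of pairs. Any pair chosen for groups that lie fully apart gives this p, so the test adds nothing to the ratios.

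**Figure D2:**
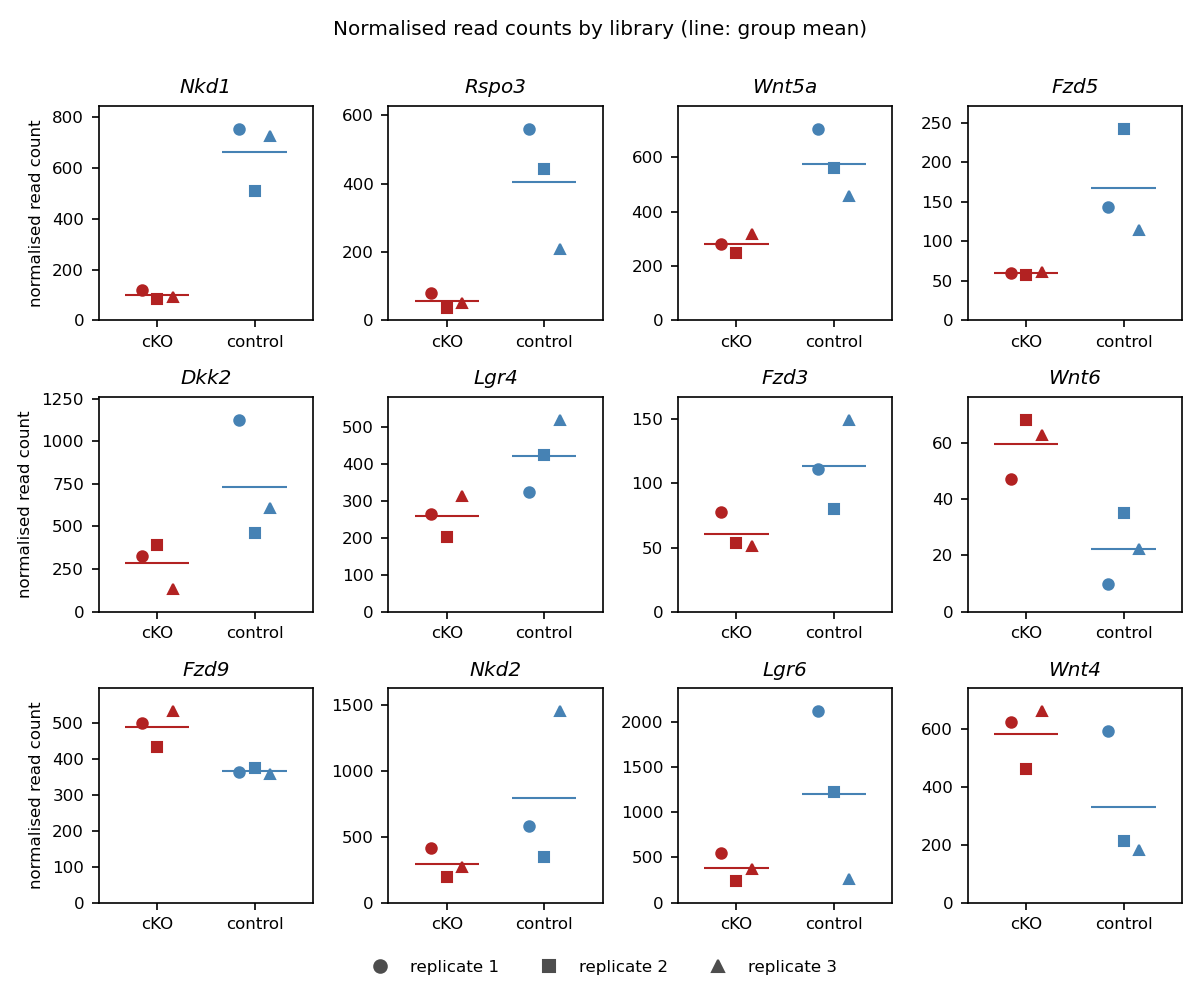
Normalised read count of 12 Wnt genes in each library, with cKO left of control, marker shapes for replicates 1 to 3 and lines for group means. The 3 cKO libraries lie wholly below the controls for Nkd1, Rspo3, Wnt5a, Fzd5, Dkk2, Lgr4 and Fzd3 and wholly above them for Wnt6 and Fzd9, while Nkd2, Lgr6 and Wnt4 overlap.

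All 12 receptor genes were tested and none passed. The median log2 fold change was -0.20, with 8 genes lower and 4 higher. Fzd5, a Frizzled receptor that can signal through beta-catenin, is on the minus strand of chromosome 1 (64730558 to 64737751). Its normalised read counts were 60.4, 57.5 and 60.8 in cKO replicates 1 to 3, against 144, 243 and 115 in control replicates 1 to 3. The cKO libraries were close together and all below the controls. The Fzd5 log2 fold change was -1.40 ± 0.34 (SE; 95% CI -2.17 to -0.63), with a limma adjusted p of 0.105 and a DESeq2 adjusted p of 0.00522. Opposite-strand exons of Gm38058 cover 17.8% of its exon bases.

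Fzd3, a Frizzled known for planar polarity and axon guidance, had 78.1, 53.6 and 50.8 in cKO replicates 1 to 3, against 111, 80.0 and 149 in control replicates 1 to 3. The groups did not overlap, though cKO replicate 1 and control replicate 2 lay side by side, and the limma adjusted p was 0.326. Fzd9 had 499, 434 and 533 in cKO replicates 1 to 3, against 363, 376 and 357 in control replicates 1 to 3, so each cKO library lay higher. Its log2 fold change was 0.41 ± 0.17 (SE) with a limma adjusted p of 0.321. Fzd4, the receptor with the highest mean per kilobase in controls and the second to Fzd9 in cKO uteri, had 1686, 960.5 and 1347 in cKO replicates 1 to 3, against 1302, 1757 and 1297 in control replicates 1 to 3. The Fzd4 groups overlapped, with a 95% CI of the log2 fold change from -0.66 to 0.37.

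The remaining receptors overlapped between groups. Fzd7 had a log2 fold change of -0.69 (limma adjusted p = 0.3) and Fzd2 one of -0.57 (limma adjusted p = 0.5). The co-receptor gene Lrp6 had 957 to 1316 in cKO and 1120.1 to 1199 in control libraries, and its interval, from -0.35 to 0.41, does not reach a change of 1 log2 unit in either direction. The intervals of Lrp5, Fzd1, Fzd4, Fzd6 and Fzd8 also lay within 1 log2 unit.

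The R-spondin axis held 1 gene that fell. Rspo3 is on the minus strand of chromosome 10 (29452416 to 29535867). Its normalised read counts were 79.0, 36.1 and 51.9 in cKO replicates 1 to 3, against 561, 442 and 208 in control replicates 1 to 3. Every cKO library lay below every control, and the mean of the controls was 7.25 times that of the cKO. The log2 fold change was -2.79 ± 0.42 (SE; 95% CI -3.74 to -1.84) with a limma adjusted p of 0.0187 and an edgeR adjusted p of 0.0265. The call was lost without cKO replicate 2 (log2 fold change -2.52, limma adjusted p = 0.106), without cKO replicate 3 (-2.78, 0.116) and without control replicate 2 (-2.67, 0.0529). Opposite-strand exons of Gm48159 cover 13.1% of its exon bases. Beside it, the 9 smooth muscle markers other than Des had a summed mean in controls 12.1 times that in cKO. Uterine mesenchyme markers took 0.0180, 0.0129 and 0.0119% of reads in cKO replicates 1 to 3. In control replicates 1 to 3 they took 0.0478, 0.0402 and 0.0188%, and epithelial markers took 0.0430, 0.0189 and 0.00521%. Rspo3 shared this order of the controls. The part of the smooth muscle, mesenchyme and epithelial lists in the result was not tested.

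Rspo1 had 151, 152 and 140.3 in cKO replicates 1 to 3, against 522, 216 and 52.5 in control replicates 1 to 3. The cKO libraries were nearly equal and lay inside the control range. The Rspo1 log2 fold change was -0.30 ± 0.76 (SE), with a limma adjusted p of 0.907, and it ranged from -1.18 to 0.46 with 1 library left out. The ratio of Rspo3 to Rspo1, chosen after its values were seen, was 0.525, 0.237 and 0.370 in cKO replicates 1 to 3, against 1.07, 2.05 and 3.97 in control replicates 1 to 3. An exact two-sided permutation test gave p = 0.1, the smallest possible, which any pair chosen for groups fully apart gives. Rspo2 held 0, 7 and 0 reads in cKO replicates 1 to 3, against 1, 4 and 85 reads in control replicates 1 to 3. Neuron markers took 0.00283 to 0.00397% of reads in cKO libraries, against 0.00271, 0.00742 and 0.0467% in control replicates 1 to 3, and their part in the Rspo2 value was not tested. Rspo4 held at most 15 reads in any library.

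Of the R-spondin receptors, Lgr6 was the most abundant per kilobase in the controls. It had 550.1, 239.9 and 373 in cKO replicates 1 to 3, against 2114, 1218 and 268 in control replicates 1 to 3. Control replicate 3 lay inside the cKO range. The Lgr6 log2 fold change was -1.27 ± 0.80 (SE; 95% CI -3.25 to 0.72), and without control replicate 3 it was -2.13 with a limma adjusted p of 0.0477. Control libraries ran in the same order in Lgr6, in Rspo1 and in the uterine mesenchyme and epithelial shares given beside Rspo3. The part of either share in these values was not tested. Lgr4 had 263, 202 and 312 in cKO replicates 1 to 3, against 324, 422 and 518 in control replicates 1 to 3. The Lgr4 groups lay apart by a narrow gap, with a log2 fold change of -0.70 ± 0.24 (SE) and a limma adjusted p of 0.247. Lgr5, a marker of intestinal stem cells, held at most 15 reads in any library.

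The secreted inhibitors did not move one way. Of 9 genes, 8 were tested, 3 had a lower and 5 a higher log2 fold change, none passed, and the median was 0.21. Dkk2, a Dickkopf protein that binds Lrp5 and Lrp6, is on the plus strand of chromosome 3 (132085292 to 132180304). It had 325, 392 and 135 in cKO replicates 1 to 3, against 1125, 460.1 and 609 in control replicates 1 to 3. All 3 cKO libraries were lower, and cKO replicate 3 was the lowest. The Dkk2 log2 fold change was -1.39 ± 0.47 (SE; 95% CI -2.50 to -0.29), with a limma adjusted p of 0.254 and a DESeq2 adjusted p of 0.0284. Dkk3, a divergent Dickkopf protein, had 809, 502 and 922 in cKO replicates 1 to 3, against 913, 1189 and 1528 in control replicates 1 to 3, with a limma adjusted p of 0.278.

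The 4 secreted Frizzled-related protein genes all had log2 fold changes above 0, from 0.17 for Sfrp1 to 0.59 for Sfrp5, and none passed. With each library left out in turn, Sfrp2 and Sfrp5 stayed above 0, while Sfrp1 and Sfrp4 went as low as -0.094 and -0.24. Sfrp4 had 2182, 2156 and 2814 in cKO replicates 1 to 3, against 997, 1948 and 4034 in control replicates 1 to 3 and the cKO libraries lay inside the span of the controls. Wif1, a secreted Wnt-binding protein, and Notum, an enzyme that strips the lipid from Wnts, had log2 fold changes of 0.24 ± 0.70 and -1.88 ± 1.35 (SE). Notum was highest, at 69.5, in control replicate 1, the library with the highest epithelial marker share. Dkk1 held at most 2 reads in any library.

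**Figure D3:**
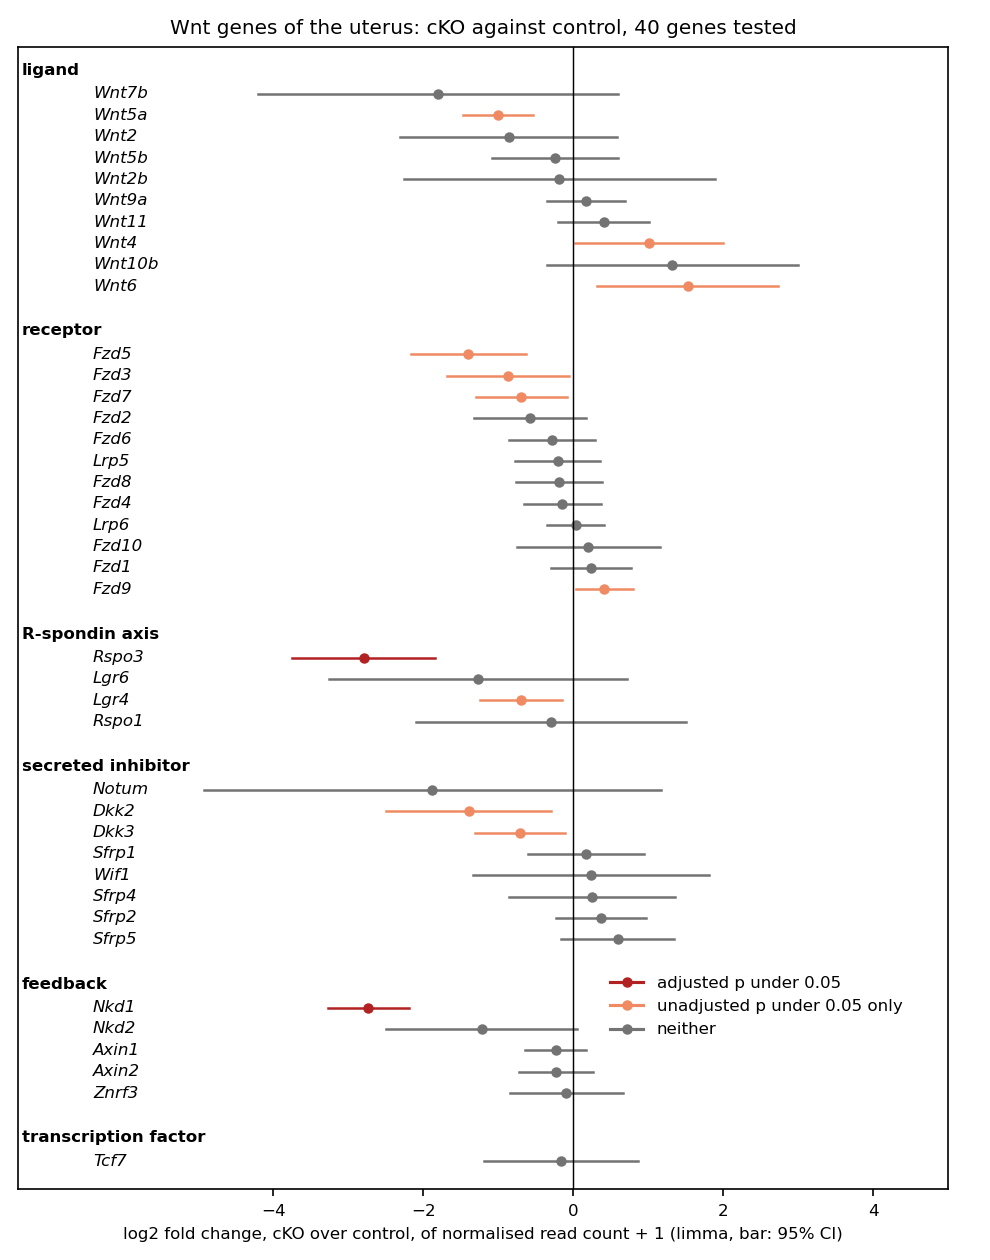
Log2 fold change of cKO over control, on the scale of log2(normalised read count + 1), for the 40 tested Wnt genes by role, with 95% confidence intervals from limma. Rspo3 and Nkd1 are the pair with an adjusted p under 0.05, and 10 further genes have only an unadjusted p under 0.05.

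Among the feedback genes, Nkd1 fell and the others did not pass. Nkd1 is a Wnt target gene whose product binds Dishevelled and dampens the pathway, and it is on the plus strand of chromosome 8 (88521354 to 88594884). Its normalised read counts were 119.9, 83.9 and 92.8 in cKO replicates 1 to 3, against 755, 511 and 726 in control replicates 1 to 3. The groups lay far apart, with the lowest control above the highest cKO library by more than the whole range of either the cKO or the control values. The mean of the controls was 6.72 times that of the cKO. The log2 fold change was -2.73 ± 0.24 (SE; 95% CI -3.27 to -2.19), with a limma adjusted p of 0.00131 and an edgeR adjusted p of 0.00217. Nkd1 passed with each of the 6 libraries left out in turn, at log2 fold changes from -2.91 to -2.62 and limma adjusted p values up to 0.0157. The 9 smooth muscle markers other than Des were also lower in cKO, with a summed mean 12.1 times as high in controls. They took 0.0765 to 0.1004% of reads in cKO libraries, against 0.870, 1.21 and 1.10% in control replicates 1 to 3. On the normalised scale used for Nkd1, their summed values were 15471, 12225 and 12332 in cKO replicates 1 to 3. In control replicates 1 to 3 these sums were 154635, 175946 and 152924. The part of these markers in the result was not tested.

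The other feedback genes gave different pictures. Nkd2, the paralog of Nkd1, had 417, 199 and 275 in cKO replicates 1 to 3, against 579, 344 and 1453 in control replicates 1 to 3. The groups overlapped, and the Nkd2 log2 fold change of -1.22 ± 0.54 (SE; limma adjusted p = 0.386) was -0.65 without control replicate 3. Axin2, the scaffold protein gene most used as a readout of beta-catenin activity, had 269, 236 and 242 in cKO replicates 1 to 3, against 301, 358 and 231 in control replicates 1 to 3. The Axin2 groups overlapped, and the 95% CI of its log2 fold change ran from -0.72 to 0.26. Axin1 encodes the scaffold of the complex that degrades beta-catenin. It was grouped here with the feedback genes and was the most abundant of that group per kilobase in cKO uteri. Axin1 had 419, 497 and 406 in cKO replicates 1 to 3, against 507, 595 and 454 in control replicates 1 to 3. Its interval ran from -0.64 to 0.17. The ligase gene Znrf3 stood at 86.4 to 87.8 in cKO and 67.4 to 134 in control libraries. Rnf43 held 0, 1 and 2 reads in cKO replicates 1 to 3, against 23, 14 and 0 in control replicates 1 to 3. It was not tested. The epithelial marker share of the controls ran in the same order, at 0.0430, 0.0189 and 0.00521%. Its part in the Rnf43 reads was not tested.

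Nkd1 and Axin2 were compared within each library, a pair chosen after its values were seen. The ratio of Nkd1 to Axin2 was 0.445, 0.355 and 0.384 in cKO replicates 1 to 3, against 2.51, 1.43 and 3.14 in control replicates 1 to 3. The cKO and control libraries thus lay on opposite sides of 1. The mean log2 ratio was -1.35 ± 0.16 in cKO and 1.16 ± 0.58 in control libraries (SD, n = 3 each). The difference was -2.51, with p = 0.1 by an exact two-sided permutation test, the smallest possible. Any pair chosen for groups fully apart gives this p.

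Promoter windows of the 3 feedback genes Nkd1, Nkd2 and Axin2 are printed because these genes differ in how far their cKO and control libraries lie apart and because TCF21 belongs to the basic helix-loop-helix proteins, which bind E-boxes (CANNTG). The windows run from 250 bases before to 50 after a RefSeq start on GRCm38.p6. The Nkd1 start is 6279 bases inside the gene as the deposited table gives it, while the Nkd2 and Axin2 starts are the first bases of their genes, so the windows are not of the same kind. They are chr8:88527383-88527682 (plus strand) for Nkd1, chr13:73847582-73847881 (minus strand) for Nkd2 and chr11:108920099-108920398 (plus strand) for Axin2. Sequences are 5′ to 3′ along the gene, with E-boxes in capitals.
Nkd1: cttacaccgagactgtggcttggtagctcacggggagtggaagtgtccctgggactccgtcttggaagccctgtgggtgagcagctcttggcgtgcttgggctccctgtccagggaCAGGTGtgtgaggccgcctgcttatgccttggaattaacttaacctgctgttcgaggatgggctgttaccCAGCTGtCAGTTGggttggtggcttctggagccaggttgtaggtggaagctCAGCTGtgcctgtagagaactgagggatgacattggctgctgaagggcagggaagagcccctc
Nkd2: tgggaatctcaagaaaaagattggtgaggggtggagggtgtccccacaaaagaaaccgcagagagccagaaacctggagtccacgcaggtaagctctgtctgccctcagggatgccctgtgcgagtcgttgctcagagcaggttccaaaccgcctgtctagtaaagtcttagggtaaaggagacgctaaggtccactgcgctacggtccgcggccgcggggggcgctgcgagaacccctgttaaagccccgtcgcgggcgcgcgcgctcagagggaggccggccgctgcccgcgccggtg
Axin2: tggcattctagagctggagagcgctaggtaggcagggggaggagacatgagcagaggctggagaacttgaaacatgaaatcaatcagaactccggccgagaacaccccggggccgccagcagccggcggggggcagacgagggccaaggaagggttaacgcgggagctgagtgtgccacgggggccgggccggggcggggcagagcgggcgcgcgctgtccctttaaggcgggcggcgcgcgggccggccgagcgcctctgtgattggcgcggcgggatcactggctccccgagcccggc
The window at this internal start of Nkd1 holds 4 E-boxes, which begin at positions -134, -64, -57 and -13 from the start, and 2 of these read CAGCTG. The Nkd2 and Axin2 windows hold none. Of 32851 windows in the RefSeq table, 72.3% hold at least 1 E-box and 6.49% at least 4, and 1.9% hold at least 2 copies of CAGCTG, each of which is also an E-box. None of the 3 windows holds the TCF/LEF words CTTTGAT or CTTTGAA or CTTTGTT or CTTTGTA on either strand, and 16.9% of all windows hold at least 1 of them. Windows were found for 33 of the 51 genes, and none for Rspo3 or Wnt5a. Of the 41 windows of these genes, 28 hold at least 1 E-box, 6 hold CAGCTG and 6 hold a TCF/LEF word. A match in such a window is a description of its letters and not a binding site.

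**Figure D4:**
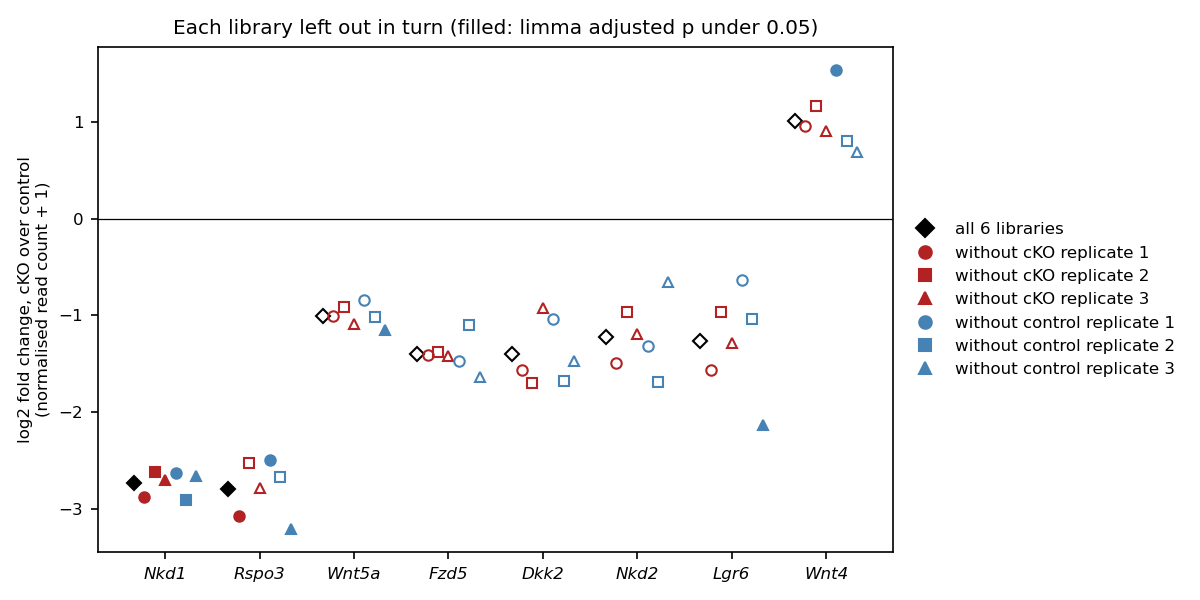
Log2 fold change of cKO over control on the log2(normalised read count + 1) scale for 8 Wnt genes with all 6 libraries (black) and with each library left out (red, a cKO library; blue, a control). Filled symbols have a limma adjusted p under 0.05. Nkd1 is filled throughout, Rspo3 in 4 of 7 fits, and Wnt5a, Lgr6 and Wnt4 in 1 fit each.

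The 2 transcription factor genes among the 51, Tcf7 and Lef1, were low. Tcf7 had 28.8, 37.1 and 55.2 in cKO replicates 1 to 3, against 48.8, 58.4 and 29.4 in control replicates 1 to 3, with overlapping groups and a limma adjusted p of 0.913. Lef1 held 13, 12 and 0 reads in cKO replicates 1 to 3, against 3, 3 and 0 reads in control replicates 1 to 3, and was not tested.

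The rest of the pathway was read from 6 lists of genes outside the 51, which hold 128 different genes in the table. Of the 119 tested, none rose and 1 fell at a limma adjusted p under 0.05, with a median log2 fold change of -0.13. The share called lower, 0.84%, was near the 0.889% of all tested genes. At an unadjusted limma p under 0.05, 9 were lower and 5 higher, which is 7.56% and 4.2%, against 7.6% and 6.11% of all tested genes. The gene that fell was Id2, an inhibitor of helix-loop-helix proteins in the list of beta-catenin targets, at 283, 269 and 233 in cKO replicates 1 to 3, against 552, 518 and 525 in control replicates 1 to 3. The Id2 groups lay apart, with a log2 fold change of -1.02 ± 0.17 (SE) and a limma adjusted p of 0.0300. The call was lost without cKO replicate 1, 2 or 3 (limma adjusted p = 0.0871, 0.142 and 0.183) or control replicate 2 (0.0540), with scaling to total reads (0.0535) and with the replicate block (0.0581). In each of these 0 of the 119 genes were called lower, and 3 were called without control replicate 1. Id2 was 1 of 20 tested genes in that list, whose median log2 fold change was -0.20. None of the 12 genes of Wnt secretion, 16 alternative receptors and surface modulators, 26 genes of intracellular transduction, 18 nuclear effectors and 27 genes of the polarity and calcium branch passed, with list medians between -0.21 and -0.06. DESeq2 called 2 of 118 genes lower, Id2 and Daam1, and 1 higher, Camk2a, which is 1.69% and 0.847%, against 3.72% and 1.8% of all genes it gave an adjusted p.

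Spread between animals differed between the groups for these genes as it did across the transcriptome. The coefficient of variation was larger in control than in cKO libraries for 27 of the 40 tested Wnt genes (67.5%), against 68.1% of all tested genes. Its median over the Wnt genes was 21.5% in cKO and 31.2% in control libraries. Among the controls, replicate 1 was the highest and replicate 3 the lowest for 10 of the 40 Wnt genes (25%, against 17.4% of all tested genes), and replicate 2 was the highest and replicate 3 the lowest for another 10 (25%, against 15.5%).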

How the data were processed

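RNA was measured in 3 cKO and 3 control uteri, and per the labels each library came from 1 animal. HISAT2, SAMtools, featureCounts and the build GRCm39 are named in the submitters' processing notes. Gene coordinates in the deposited table are those of GENCODE vM21 (GRCm38) for 25239 of the 25988 listed genes found there and for 50 of the 51 Wnt genes, Fzd8 being the exception, and are given here as GRCm38. The authors deposited a normalised signal per gene, which is a read count divided by 1 size factor per library. They also deposited log2 fold changes, p-values and adjusted p-values of their own comparison, used here only where named. Gene lengths and positions were taken from the table the authors deposited. Whole reads were recovered from the deposited normalised counts by dividing by the value of 1 read (100% of values whole within 0.01 reads).

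Genes passing edgeR's filterByExpr on those reads (16314) were fitted with limma 3.58.1 (trend and robust) in R 4.3.3 on log2(normalised read count + 1). Benjamini-Hochberg adjustment was over all of them. On this log2 scale, changes of low genes can come out smaller or larger than in edgeR. Wnt7b was -1.80 with limma and -2.63 with edgeR. Tcf21, at 0 in cKO replicates 2 and 3, was -6.03 with limma and -4.56 with edgeR. edgeR 4.0.16, DESeq2 1.42.0, other scalings, pseudocounts of 0.5 and 5, other filters, a replicate block and omission of libraries were alternatives. The fit was tested on simulated data. A value in every library was given for genes that passed, that had an unadjusted p under 0.05 with groups apart, or that led their role per kilobase, and for some others where 1 library or the pathway's function made them of interest. Those others (Wnt7a, Wnt7b, Dkk3, Rspo1, Rspo2, Nkd2, Axin2, Rnf43 and Lef1 among them) were chosen after their values were seen. Members and gene lists were chosen with earlier results of these data known. Limits from a count of 0 use 3 reads and cover counting error only. Near-identical stretches were found with blastn 2.17.0 (at least 95% identity over 100 bases), and promoter windows are from RefSeq on GRCm38.p6.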

Additional observations from a re-analysis of the deposited data

How the results depend on the processing

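Nkd1 was called lower under every alternative run, and Rspo3 under all but the omission of cKO replicate 2, cKO replicate 3 or control replicate 2. The number of Wnt genes called lower was 2, against 6 with DESeq2, 3 with no filter (Wnt5a added), 4 without control replicates 1 and 3 together, and 1 to 4 with each library left out. The number called higher was 0, against 1 (Wnt4) without control replicate 1 and 1 without control replicates 1 and 3. That omission leaves 1 control library, assumed to vary like the cKO libraries, and calls 465 genes lower and 254 higher over the whole table. The median over the Wnt genes ranged from -0.36 to -0.14 with 1 library left out. For the other pathway genes, the number called lower was 1, against 2 with DESeq2, 0 with scaling to total reads, 6 without control replicates 1 and 3, and 0 to 3 with each library left out. The number called higher was 0, against 1 with DESeq2 and 1 without control replicates 1 and 3. Tcf21 had a log2 fold change of -6.03 with a limma adjusted p of 0.0765, -4.45 with a pseudocount of 5 (limma adjusted p = 0.0301), -4.56 with edgeR (adjusted p = 0.245), -4.61 with DESeq2 (adjusted p = 0.256), and -7.62 to -5.24 with each library left out. The causes of these shifts were not tested.

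The labels do not pair the animals, and same-numbered libraries did not deviate together (correlations 0.0084, -0.18 and 0.044 across genes). With the replicate block, 2 Wnt genes and 0 other pathway genes were called lower, and Tcf21 had -6.03 with a limma adjusted p of 0.0126.

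Some log2 fold changes that had not passed turned in sign, those of Wnt7b (-1.80) and Notum (-1.88) among them. Wnt2b was 0.24 with edgeR and 0.25 with DESeq2, and Lrp6 was -0.0019 with scaling to total reads. Without control replicates 1 and 3, Znrf3 was 0.37, Wnt7b 0.18, Fzd6 0.17, Fzd8 0.19 and Notum 0.088. With each library left out, the ranges were -0.71 to 0.74 for Wnt2b, -0.050 to 0.18 for Lrp6, -0.44 to 0.047 for Tcf7, -0.34 to 0.068 for Fzd4, -0.18 to 0.97 for Wif1, -0.094 to 0.45 for Sfrp1, -1.18 to 0.46 for Rspo1, -0.32 to 0.17 for Znrf3, -0.036 to 0.42 for Fzd10, -0.24 to 0.76 for Sfrp4, -0.65 to 0.017 for Wnt5b and -0.0041 to 0.27 for Wnt9a.

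Over all tested genes, limma called 145 lower and 45 higher, against 119 and 12 with scaling to total reads, 578 and 280 with DESeq2, and 46 to 277 lower and 1 to 92 higher with each library left out. The filter on low reads left out Wnt7a, Rspo2 and Rnf43, and with no filter their limma adjusted p values were 0.788, 0.645 and 0.657.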
